A study of Mus musculus with 16 samples.

Results

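Transcript levels were compared between cortical neural stem cells (NSC) that carried an shRNA against the long noncoding RNA *RUS* and NSC that carried a scrambled shRNA, 7 days after seeding. The comparison takes 8 of the 16 libraries of the knockdown experiment, 4 for each shRNA, which were picked by the shRNA and the day in their labels. The cells came from the cortices of pooled C57BL/6 mouse embryos of mixed sex at E15 to E16, were transduced with a lentivirus 1 day after seeding and grew with FGF2 until day 5, when differentiation began. The control group (shRNA CON) was labelled scr shRNA and the knockdown group (shRNA RUS) RUS shRNA, and both groups share the strain, the viral vector, the growth factor and the change of medium. The other 8 libraries, 4 for each shRNA from day 5, before differentiation began, were used only to compare the effect between the days. A single shRNA sequence against *RUS* and a single scrambled sequence were used, so an effect of the sequence other than on *RUS* cannot be told apart from the knockdown in these libraries. In a rescue experiment of the paper, added *RUS* largely brought back cells stained for a neuronal tubulin, but none of these libraries comes from it. The replicates are numbered 1 to 4, and the labels do not say whether each came from its own culture or pool, so the p-values measure the spread between these libraries, which may be technical.

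NSC of the embryonic cortex divide, keep a radial glial identity and give rise to neurons, astrocytes, oligodendrocytes and ependymal cells, while microglia enter the brain from the yolk sac and do not descend from NSC. In culture, withdrawal of FGF2 lets the cells leave the cycle and take on the genes of these lineages. A long noncoding RNA can act on the transcription of its neighbours or of distant genes, and polyA RNA-seq reads the levels of transcripts from all of these genes without telling direct from later effects.

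*RUS* is listed as *Gm20754*. Its level was 0.70, 0.72, 0.26 and 0.54 TPM, a length-normalized share of the library's transcripts, in replicates 1 to 4 of shRNA CON, and in those of shRNA RUS it was 0.54, 0.38, 0 and 0.040 TPM, so replicates 3 and 4 of the knockdown were near 0 while replicates 1 and 2 lay within the range of the controls. The mean with shRNA RUS was 43.2 % of that with shRNA CON, a difference that did not pass the exact permutation test (two-sided, p = 0.143, smallest possible p 0.0286, n = 4 per group). The libraries nevertheless fell apart by their labels over the whole transcriptome: Pearson's correlation of log2 values over genes lay between 0.970 and 0.978 within a group and between 0.930 and 0.946 across groups.

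Levels are given as deposited TPM, and differences as log2 fold changes of shRNA RUS over shRNA CON from limma, after division by a library factor and addition of 0.1, with a Benjamini-Hochberg adjusted p under 0.05 as the rule for a call. Of the 24606 genes tested, 5766 were called higher with shRNA RUS (23.4 %) and 6342 lower (25.8 %), which makes 49.2 % in either direction, and over all genes the median was −0.029. A list of genes is described below by how many members were called in each direction, to be read against these shares. The shares were larger among genes of higher level: with a filter at a mean of 1 TPM, 5386 of 16333 genes were called higher and 5554 lower. The share called higher also grew with transcript length, as given below. In 22.3 % of the 24606 genes all knockdown libraries lay above all controls, and in 24.2 % all lay below. The members named are the largest increase, the largest decrease and the highest level of a list by a fixed rule, and 118 further genes were named after their values were seen, to give the partners or the opposite case. A call with so many genes past the threshold says that a difference was larger than the spread of the libraries, not that it was large. In a bulk sample, fewer cells of a type and less RNA of a gene per cell cannot be told apart.

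The markers of the labelled cells were present. The summed level of 8 radial glial markers, among them *Vim*, *Fabp7* and *Sox2*, lay between 7324 and 7766 TPM with shRNA CON and between 7817 and 8560 TPM with shRNA RUS. Of these 8, 3 were called higher and 3 lower. The cultures also held transcripts of other cells. Neuronal markers summed to 753 to 835 TPM with shRNA CON and 710.2 to 835 TPM with shRNA RUS, and astrocyte markers to 1063 to 1109 and 1240 to 1420 TPM. Of the 6 neuronal markers, 2 were called higher and 2 lower, and of the 5 astrocyte markers 2 higher and 1 lower. The 5 markers of intermediate progenitors summed to 55.5 to 60.5 TPM with shRNA CON and 45.4 to 51.6 TPM with shRNA RUS, without overlap, and 4 of them were called lower and the other one not called. The 6 markers of endothelial cells and pericytes summed to 18.2 to 19.9 TPM with shRNA CON and 30.98 to 33.8 TPM with shRNA RUS, also without overlap, with 1 called higher and 1 lower of the 4 that passed the filter. The 5 markers of fibroblasts summed to 4.93 to 7.34 TPM with shRNA CON and 6.91 to 9.28 TPM with shRNA RUS, with 2 called higher and the others not called of the 4 that passed. The longer lists of these cells summed to 21.1 to 21.8 TPM with shRNA CON and 32.96 to 36.6 TPM with shRNA RUS for endothelial cells and pericytes, with 2 of 9 genes called higher and 1 lower, and to 63.6 to 70.6 TPM with shRNA CON and 81.6 to 88.5 TPM with shRNA RUS for fibroblasts and meningeal cells, with 5 of 10 called higher and 1 lower. In the longer endothelial and pericyte list, the member of highest level was also the largest increase. Both this member and the gene called lower are among the 6 markers of these cells. The part of these other cells in the results below was not tested. The share of TPM from mitochondrial genes was 7.01 to 8.71 % with shRNA CON and 7.73 to 8.85 % with shRNA RUS.

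**Figure D1:**
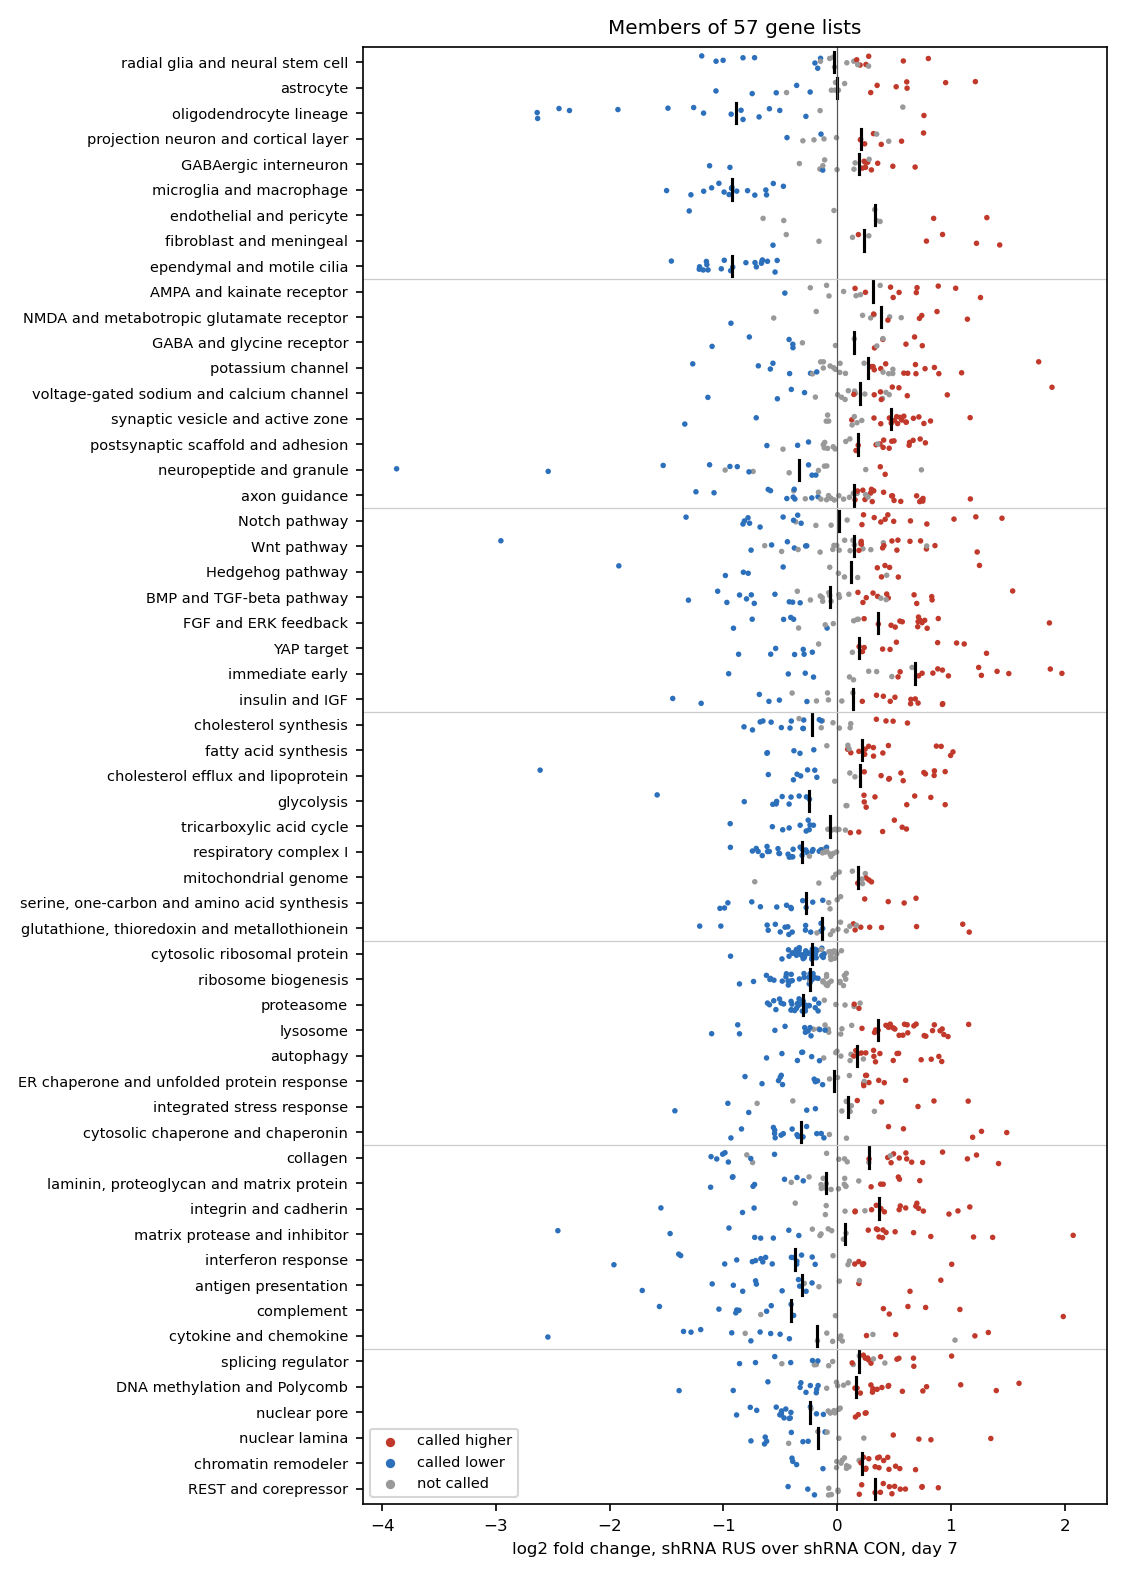
Log2 fold changes (shRNA RUS over shRNA CON, day 7, horizontal axis) of the members of 57 gene lists, 1 list per line and grouped by theme. Red points were called higher, blue points lower and grey points neither (limma, adjusted p under 0.05), and the black bar is the list's median. The microglia list and the ependymal list lie wholly on the lower side, at medians of −0.93 and −0.93, while the lists of synaptic vesicles and immediate early genes lie mostly on the higher side.

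Genes of the oligodendrocyte lineage were lower with shRNA RUS. Of 18 genes, 15 were called lower and 1 higher, with a median log2 fold change of −0.89. *Olig1*, a transcription factor of the lineage with the highest level in the list, had 201, 228, 233 and 178 TPM with shRNA CON and 127, 152, 159 and 155 TPM with shRNA RUS, a log2 difference of −0.50 ± 0.0930 (SE, adjusted p = 0.00145, limma). All knockdown libraries lay below all controls. *Pdgfra*, the growth factor receptor of oligodendrocyte precursors, had 51.2, 55.1, 52.3 and 57.96 TPM with shRNA CON and 39.03, 30.01, 22.8 and 32.2 TPM with shRNA RUS, also without overlap, with a log2 fold change of −0.83. *Gpr17*, a receptor of cells committed to differentiation, had 12.6, 13.1, 10.04 and 13.9 TPM with shRNA CON and 5.85, 1.86, 0.41 and 2.56 TPM with shRNA RUS, a log2 difference of −2.64 ± 0.61 (SE, adjusted p = 0.00530, limma). *Bcas1*, which marks newly formed oligodendrocytes, had 22.2, 27.8, 16.9 and 29.1 TPM with shRNA CON and 11.3, 2.66, 1.20 and 5.04 TPM with shRNA RUS, and replicate 1 of the knockdown was again the nearest to the controls. *Mbp*, a main protein of myelin, fell by 2.35 in log2 units (adjusted p = 0.0196 by limma), a call lost without replicate 4 of shRNA CON or replicate 2 of shRNA RUS (limma adjusted p up to 0.0550), and its groups overlap, since replicate 3 of shRNA CON had 12.8 TPM and replicate 1 of shRNA RUS had 19.3 TPM. *Sox10* (−1.49), *Nkx2-2* (−1.26) and *Myrf* (−1.93), transcription factors of the lineage with log2 fold changes in parentheses, were called lower too. *Cnp*, an enzyme of myelin that other cells also express, was the exception at 0.76 on the log2 scale, with 126, 124, 116 and 116 TPM with shRNA CON and 204, 209, 199 and 205 TPM with shRNA RUS. *Mog*, a surface protein of myelin, was not called, with a log2 fold change of 0.58.

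Genes of multiciliated ependymal cells were lower as a group: all 20 members were called lower, between −1.46 and −0.53 on the log2 scale. The list holds the regulators as well as the parts of the axoneme. *Gmnc*, which starts the programme of multiciliated cells, had 19.1, 19.8, 20.5 and 21.9 TPM with shRNA CON and 6.66, 7.59, 8.67 and 6.64 TPM with shRNA RUS, a log2 difference of −1.46 ± 0.0910 (SE, adjusted p = 1.65e-06, limma). *Mcidas*, its downstream partner, had 27.9, 27.1, 30.9 and 25.2 TPM with shRNA CON and 11.8, 14.2, 17.1 and 13.01 TPM with shRNA RUS, a log2 difference of −0.99 ± 0.11 (SE, adjusted p = 5.25e-05, limma). *Foxj1*, the transcription factor that turns on the genes of motile cilia, had 359, 365, 409 and 303 TPM with shRNA CON and 202, 242, 274 and 222 TPM with shRNA RUS, a log2 difference of −0.61 ± 0.10 (SE, adjusted p = 9.26e-04, limma). None of these 3 regulators overlapped between the groups, where 24.2 % of all genes tested lay wholly below the controls. The fold changes were largest for *Gmnc* and smallest for *Foxj1*. Among the structural genes, log2 fold changes were −1.14 for *Rsph1* and −0.80 for *Rsph4a*, which encode radial spoke proteins, −1.15 for *Dnaic1* and −0.67 for *Dnah5*, which encode parts of the dynein arms, and −1.18 for *Tekt1*, a protein of the doublet microtubules. RFX factors act with *Foxj1* at such genes through the word GTTGCC, which was found on either strand in 7 of the 20 RefSeq promoters of list genes (35.0 %; 250 bases before to 50 after the start, 17 of 20 genes matched) and in 12.5 % of all 32851 promoters. The full X-box, searched as GTTNCC and GGNAAC with any 2 bases between them, stood in the promoter of *Pifo* alone, against 0.451 % of all promoters. It is shown with the X-box in capitals because *Pifo*, a gene of the ciliary base, fell by 1.15 on the log2 scale. 
Pifo (chr3:106001496-106001525): gcggttccGTTCCCTTGGCAACgtagtaca

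Transcripts of microglia were lower in every knockdown library. All 16 genes of the list were called lower, with a median log2 fold change of −0.93 and a range from −1.50 to −0.47. *Csf1r*, the receptor on which the survival of microglia depends, had 24.01, 23.1, 23.8 and 22.5 TPM with shRNA CON and 11.7, 8.57, 9.91 and 8.32 TPM with shRNA RUS, a log2 difference of −1.29 ± 0.10 (SE, adjusted p = 6.84e-06, limma). *Tmem119*, a marker that other macrophages lack, had 3.90, 5.14, 3.46 and 3.55 TPM with shRNA CON and 1.31, 1.49, 1.37 and 1.20 TPM with shRNA RUS, a log2 difference of −1.50 ± 0.14 (SE, adjusted p = 1.97e-05, limma). The knockdown libraries lay below the controls without overlap for both genes, as they did for 24.2 % of all genes tested. The list summed to 863, 862, 815 and 805 TPM with shRNA CON and 470.2, 439.9, 471 and 391 TPM with shRNA RUS. The complement list moved in part with it: of 17 genes, 9 were called lower, among them *C1qa* (−1.04 on the log2 scale) and *C1qb* (−0.88), subunits of the first component that microglia make, and *C5ar1* (−1.56), the receptor for the C5a fragment. The 6 that were called higher included *Serping1*, the inhibitor of the first component, with 37.8, 36.2, 37.8 and 34.1 TPM with shRNA CON and 149.6, 144, 129.8 and 159 TPM with shRNA RUS, a log2 difference of 1.99 ± 0.0622 (SE, adjusted p = 6.53e-08, limma). *C3*, the central component, rose by 1.08 and *C4b* by 0.78 on the log2 scale. The summed level of the complement list was 396 to 434 TPM with shRNA CON and 457 to 476 TPM with shRNA RUS, against the direction of most of its calls. The part of the fall in microglial transcripts in the values of the other immune lists was not tested.

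Interferon-stimulated genes were lower, with 18 of 26 called lower and 5 higher, a number that fell to 2 without replicate 2 of shRNA RUS (median log2 fold change −0.37). *Oas1a*, a sensor of double-stranded RNA, had 4.46, 4.17, 4.26 and 4.31 TPM with shRNA CON and 0.97, 1.04, 1.49 and 0.74 TPM with shRNA RUS, a log2 difference of −1.96 ± 0.18 (SE, adjusted p = 1.58e-05, limma). *Bst2*, which holds budding virus at the cell surface, fell by 1.38 and *Isg15*, a ubiquitin-like modifier, by 0.72 on the log2 scale. *Stat2*, a part of the factor that drives these genes, went the other way, with 22.1, 22.3, 21.1 and 20.99 TPM with shRNA CON and 38.1, 44.6, 47.6 and 44.9 TPM with shRNA RUS, a log2 difference of 1.01 ± 0.0646 (SE, adjusted p = 1.94e-06, limma). *Irf9*, its DNA-binding partner, was called higher as well, at 0.22 on the log2 scale. The interferon element, searched on both strands as GAAA and GAAA with any 2 bases between them, stood at least once in 11 of the 22 promoters of list genes (50.0 %) and in 3.44 % of all promoters. It was found in both directions of change. The windows of 30 bases below show it in capitals, on the strand of the gene and in GRCm38.p6, for 4 genes that fell and for *Stat2*, so that the letters can be set beside the levels. 
Isg15 (chr4:156200865-156200894): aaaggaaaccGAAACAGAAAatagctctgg
Ifit1 (chr19:34640775-34640804): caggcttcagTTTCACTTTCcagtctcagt
Oas1a (chr5:120907520-120907549): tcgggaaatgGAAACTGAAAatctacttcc
Bst2 (chr8:71537577-71537606): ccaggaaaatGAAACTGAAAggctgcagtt
Stat2 (chr10:128270266-128270295): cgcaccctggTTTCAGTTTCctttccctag

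Chemokines and genes of antigen presentation were called lower more often than higher. *Ccl2*, which draws in monocytes, had 12.1, 7.74, 8.75 and 10.9 TPM with shRNA CON and 1.38, 2.16, 1.78 and 1.18 TPM with shRNA RUS, a log2 difference of −2.54 ± 0.20 (SE, adjusted p = 7.01e-06, limma), and *Cxcl10*, an interferon-induced chemokine, fell by 1.28 on the log2 scale. In all, 10 of 23 cytokines and chemokines were called lower and 4 higher. *Cntf*, a cytokine that drives astrocyte differentiation, had 93.9, 90.99, 92.4 and 86.1 TPM with shRNA CON and 219, 218, 200.1 and 205 TPM with shRNA RUS, a log2 difference of 1.21 ± 0.0442 (SE, adjusted p = 1.22e-07, limma). *Lif*, a relative that shares receptor subunits with it, was called higher at 0.51, *Cx3cl1*, the neuronal ligand of a microglial receptor, at 0.26 and *Cxcl1* at 1.33 on the log2 scale. Of 18 genes of antigen presentation, 11 were called lower, among them *B2m*, the light chain of MHC class I, at −0.22, and *Psmb8*, a subunit of the immunoproteasome, at −0.91. Those called higher were *Nlrc5*, the transactivator of MHC class I genes (0.91), *Tapbp* (0.64) and *Tap2* (0.19), which serve the loading of peptides. The call for *Tap2* was lost without replicate 1, 2 or 4 of shRNA CON or replicate 2 or 3 of shRNA RUS (limma adjusted p up to 0.0779). *B2m* was not called under quantile normalization or after adjustment for transcript length, without or with GC content (limma adjusted p = 0.138, 0.340 and 0.800).

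**Figure D2:**
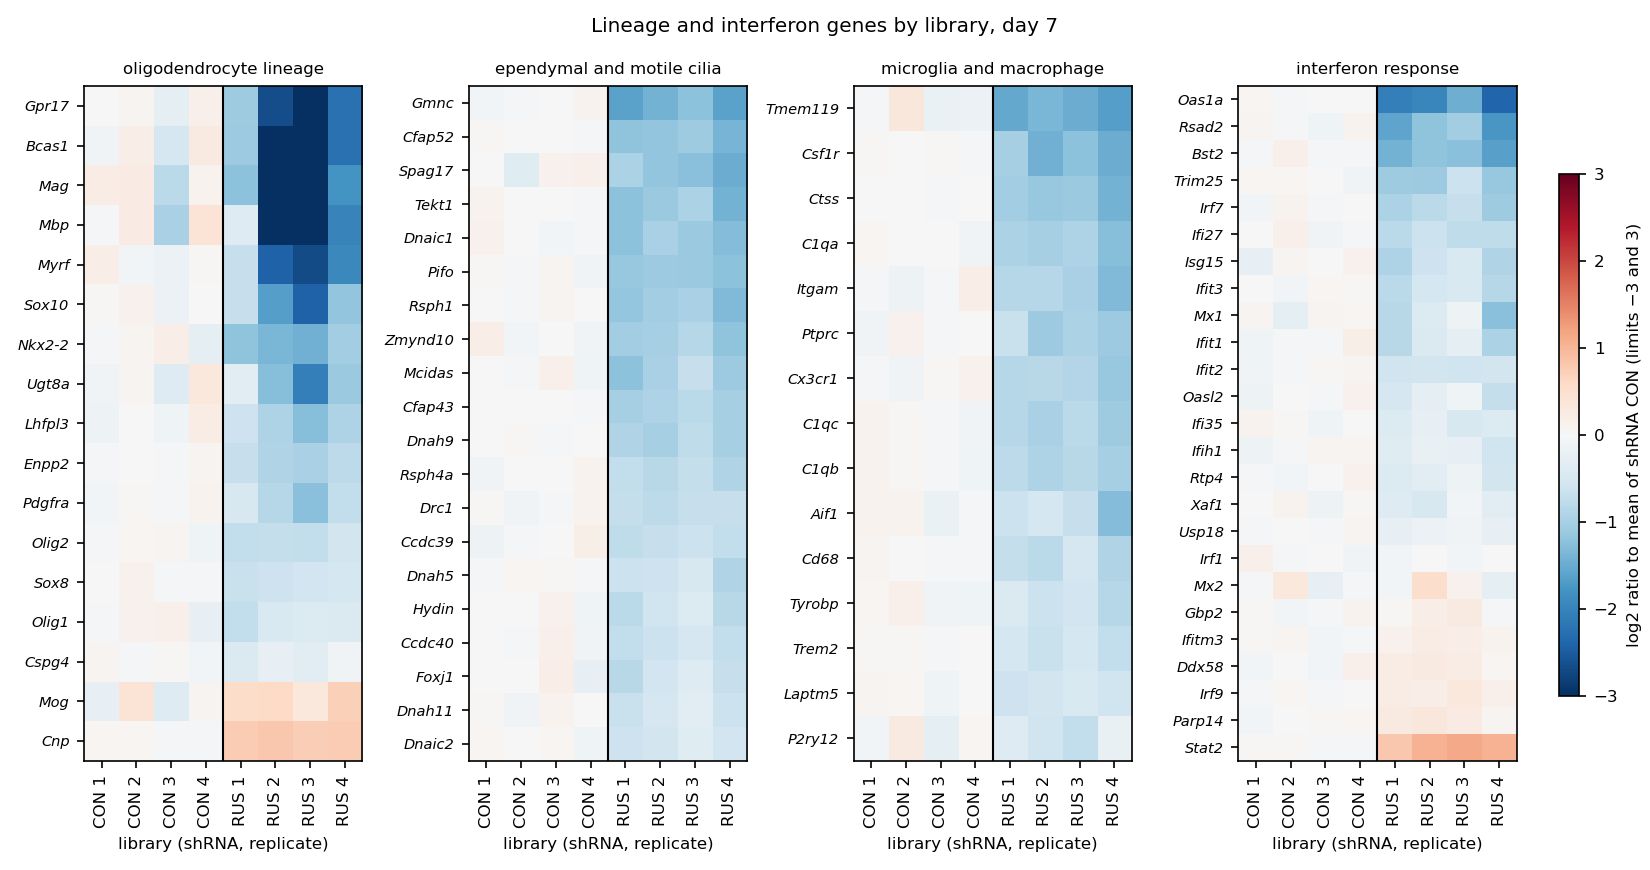
Log2 of the ratio of each library's TPM to the mean of the 4 shRNA CON libraries (colour scale, 0.1 TPM added to both) for the genes reported of the oligodendrocyte, ependymal, microglia and interferon lists on day 7, genes in lines and the 4 libraries of each shRNA in columns. Microglial and ependymal genes lie below the control mean in all 4 knockdown libraries, whereas oligodendrocyte genes such as *Gpr17* and *Bcas1* vary between them, with replicate 1 nearest to the controls.

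Radial glial and astrocyte genes did not move one way. Of 22 radial glial genes, 6 were called higher and 8 lower, which became 9 higher and 8 lower without replicate 3 of shRNA CON. *Nes*, an intermediate filament of progenitors, had 104, 108, 118 and 111 TPM with shRNA CON and 45.3, 52.04, 53.95 and 43.1 TPM with shRNA RUS, a log2 difference of −1.19 ± 0.0747 (SE, adjusted p = 1.71e-06, limma). *Vim*, the other filament of these cells and the gene of highest level in the list, rose by 0.17 on the log2 scale, a call that quantile normalization did not give, and *Emx2*, a cortical transcription factor, by 0.80. *Hopx* and *Prom1*, markers of outer radial glia and of the apical membrane, fell by 1.06 and 1.00. Of 18 astrocyte genes, 7 were called higher, among them *Aldoc* (0.61), *Gfap* (0.35), *Glul* (0.52) and *Cbs* (1.22), and 5 lower, which were *Fgfr3*, *S100b*, *Acsbg1*, *Slc6a11* and *Slc7a10* at log2 fold changes of −0.75, −0.54, −0.36, −0.24 and −1.07. The call for *Slc6a11*, a GABA transporter, was lost without replicate 1, 2, 3 or 4 of shRNA CON or replicate 1, 2 or 4 of shRNA RUS (limma adjusted p up to 0.115). The water channel *Aqp4* was not called (0.01). *Kcnj10*, the inward rectifier through which astrocytes and oligodendrocytes take up potassium, had 349, 361, 365 and 352 TPM with shRNA CON and 145, 157, 161 and 131 TPM with shRNA RUS, a log2 difference of −1.27 ± 0.0625 (SE, adjusted p = 4.51e-07, limma), and its partner *Kcnj16* fell by 0.69.

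Genes of the synaptic vesicle and the release site were higher with shRNA RUS. Of 28, 19 were called higher and 2 lower, around a median of 0.48 on the log2 scale. The list summed to 668, 688, 688 and 673 TPM with shRNA CON and 978, 1000, 1007 and 1074 TPM with shRNA RUS. Most of this sum came from *Syt11*, a vesicle protein that glia express too, which had 235, 247, 238 and 240.1 TPM with shRNA CON and 412, 414, 407 and 398 TPM with shRNA RUS, a log2 difference of 0.76 ± 0.0292 (SE, adjusted p = 1.52e-07, limma), and from *Vamp2*, the vesicle SNARE, at 0.67 on the log2 scale. Also called higher were *Snap25*, a SNARE of the plasma membrane, at 0.61 and *Syp*, a membrane protein of the vesicle, at 0.59. The exceptions were *Slc17a8*, a vesicular glutamate transporter, with 11.1, 11.8, 13.7 and 13.1 TPM with shRNA CON and 4.80, 5.68, 5.53 and 3.64 TPM with shRNA RUS, a log2 difference of −1.34 ± 0.14 (SE, adjusted p = 3.68e-05, limma), and *Sv2b*, whose call was lost without replicate 1, 3 or 4 of shRNA CON or replicate 2 or 3 of shRNA RUS (limma adjusted p up to 0.0613), at −0.71. The summed level of the 6 general neuronal markers, given above, overlapped between the groups.

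Glutamate receptors were called higher more often than lower, while GABA receptors were divided. Of 18 AMPA and kainate receptor genes and their auxiliary subunits, 10 were called higher and 1 lower, and of 14 NMDA and metabotropic receptor genes 6 higher and 1 lower. *Cacng5*, an auxiliary subunit of AMPA receptors, had 8.86, 9.04, 9.40 and 8.84 TPM with shRNA CON and 16.6, 18.4, 20.1 and 20.1 TPM with shRNA RUS, a log2 difference of 1.04 ± 0.0655 (SE, adjusted p = 1.72e-06, limma). *Gria2*, the subunit of highest level, was not called (−0.09), and *Grin3a*, a subunit that lowers the calcium flow of NMDA receptors, was called lower at −0.93 while the obligatory subunit *Grin1* was called higher at 0.88 on the log2 scale. Of 15 GABA and glycine receptor genes, 5 were called in each direction. The number called higher fell to 3 without replicate 1 or 2 of shRNA CON or replicate 1 of shRNA RUS. Among those called lower, *Gabrb1*, a beta subunit of the ionotropic receptor, fell by 1.10, *Gabra4* by 0.77, *Gabrg3* by 0.42 and *Glrb*, the beta subunit of glycine receptors, by 0.39. Among those called higher, *Gabbr1*, a subunit of the metabotropic receptor, rose by 0.68, *Gabra3* by 0.75 and *Gabra5* by 0.40 on the log2 scale. *Gphn*, the scaffold of inhibitory synapses, had a log2 fold change of −0.62, the lowest of the 27 postsynaptic genes, of which 14 were called higher and 3 lower. Adjusted for transcript length, 12 of the postsynaptic genes were called higher and 6 lower.

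Genes of potassium, sodium and calcium channels were called higher more often than lower. *Kcna2*, a delayed rectifier of axons, had 3.41, 3.80, 4.32 and 4.01 TPM with shRNA CON and 13.96, 14.1, 12.7 and 13.3 TPM with shRNA RUS, a log2 difference of 1.77 ± 0.0795 (SE, adjusted p = 2.83e-07, limma). Its groups did not overlap. Of 36 potassium channel genes 14 were called higher and 7 lower, and of 24 sodium and calcium channel genes 9 higher and 4 lower. Their median transcript lengths were 5284 and 8076 bases. In the quintile of genes with the longest transcripts, 40.6 % were called higher and 24.1 % lower. Adjusted for transcript length, the counts were 10 higher and 6 lower for potassium channels and 7 and 5 for sodium and calcium channels. The summed level of the potassium channel list went against its count, at 664 to 691 TPM with shRNA CON and 460.4 to 497 TPM with shRNA RUS, and its member of highest level was *Kcnj10*, given above as lower. Neuropeptides were different: 10 of 20 genes of peptides and granules were called lower and 2 higher. The summed level of this list also went against its count, at 2228 to 2314 TPM with shRNA CON and 2722 to 2862 TPM with shRNA RUS. *Npvf*, the precursor of RFamide-related peptides, had 20.2, 22.2, 20.6 and 21.9 TPM with shRNA CON and 1.33, 1.63, 1.10 and 1.41 TPM with shRNA RUS, a log2 difference of −3.87 ± 0.11 (SE, adjusted p = 4.59e-08, limma). *Npy*, the peptide of a class of interneurons, fell by 0.94 on the log2 scale, and *Sst*, that of another class, fell by 1.12. *Cpe*, the processing enzyme of highest level in the list, rose by 0.42.

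Genes of the interneuron lineage were called in both directions. Of 20 genes of the list, 9 were called higher and 3 lower, the latter being *Sst*, *Npy* and *Calb2*. The log2 fold change of *Calb2*, a calcium-binding protein, was −0.13, a call lost without replicate 1, 2 or 3 of shRNA CON or replicate 2, 3 or 4 of shRNA RUS (limma adjusted p up to 0.138), and it turned sign with adjustment for transcript length. *Dlx1*, a factor of ventral progenitors with the highest level, rose by 0.22, and *Slc32a1*, the vesicular transporter of GABA, had 5.53, 6.89, 7.49 and 6.24 TPM with shRNA CON and 10.7, 9.79, 10.4 and 11.3 TPM with shRNA RUS, a log2 difference of 0.69 ± 0.0912 (SE, adjusted p = 1.86e-04, limma). Among the 15 factors of cortical layers tested, 6 were called higher, with *Rorb*, a factor of the granular layer, at 0.76, and 2 lower, which were *Fezf2* (−0.44), a factor of neurons that project below the cortex, and *Lmo4*, at −0.14, which turned sign with adjustment for length and GC content. Of 44 genes of axon guidance, 19 were called higher and 10 lower, with *Robo1*, a Slit receptor, at 1.17 and *Ntn4*, a netrin, at −0.61. This split turned when the values were adjusted for transcript length (13 higher and 15 lower), whereas that of the synaptic vesicle list did not (19 and 3).

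Genes of FGF signalling were called higher more often than lower. *Fgf2*, the factor that the culture medium supplied until day 5, was itself higher, with 7.41, 6.97, 7.38 and 6.50 TPM with shRNA CON and 25.6, 25.8, 25.3 and 27.4 TPM with shRNA RUS, a log2 difference of 1.87 ± 0.0565 (SE, adjusted p = 5.38e-08, limma). *Fgfr1*, the receptor of highest level in the list, rose by 0.51 and *Fgfr3* fell by 0.75. Of the inhibitors that FGF signals induce, some were called higher, at 0.77 for *Spry2*, 0.89 for *Spry4* and 0.71 for *Spred2*, but *Dusp6* (−0.47), the phosphatase of ERK, and *Spry1* (−0.38) were called lower. In all, 15 of 27 genes were called higher and 6 lower. Immediate early genes, which answer within minutes to growth factors, calcium or stress, were called higher in 14 of 24 cases and lower in 4, with a median log2 fold change of 0.69. *Fos* had 20.7, 15.9, 18.04 and 16.8 TPM with shRNA CON and 36.8, 42.98, 46.4 and 46.5 TPM with shRNA RUS, a log2 difference of 1.27 ± 0.0984 (SE, adjusted p = 5.94e-06, limma). *Junb*, its partner in AP-1, had 11.4, 11.7, 12.9 and 8.88 TPM with shRNA CON and 24.2, 32.4, 38.3 and 34.5 TPM with shRNA RUS, a log2 difference of 1.51 ± 0.15 (SE, adjusted p = 2.50e-05, limma). *Fosl1* had the largest change at 1.98 from 0.42, 0.50, 0.60 and 0.17 TPM with shRNA CON, a low level. The 4 that were called lower were *Klf4* (−0.95), *Nr4a3* (−0.43), *Npas4* (−0.28), which answers to neuronal activity and whose call was lost without replicate 2 or 3 of shRNA CON or replicate 1 or 2 of shRNA RUS (limma adjusted p up to 0.0669), and *Btg2* (−0.21), which restrains division.

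In the Hedgehog list the genes called lower included a ligand and target genes. *Shh*, the ligand, had 8.05, 10.1, 9.07 and 8.06 TPM with shRNA CON and 2.04, 2.41, 2.56 and 2.03 TPM with shRNA RUS, a log2 difference of −1.92 ± 0.11 (SE, adjusted p = 9.02e-07, limma). Genes that the pathway is known to induce fell as well, at −0.82 for *Gli1*, −0.47 for *Ptch1* and −0.98 for *Hhip*, and these with *Shh* are among the 5 of 16 genes called lower. The balance of the list turned to 6 higher and 7 lower after adjustment for transcript length and GC content. The 6 called higher are parts of the reception and transduction of the signal, among them the transducer *Smo* (0.42), the coreceptors *Boc* (0.54) and *Gas1* (0.46) and the factor *Gli2* (1.25). In the BMP list, *Bmp4*, a ligand, had 3.44, 2.49, 3.60 and 3.07 TPM with shRNA CON and 2.26, 1.04, 0.54 and 1.57 TPM with shRNA RUS, a log2 difference of −1.31 ± 0.35 (SE, adjusted p = 0.0120, limma), and the target genes *Id1*, *Id3* and *Id4* were called lower at −1.05, −0.86 and −0.42, while the receptors *Bmpr1a* (0.44) and *Bmpr1b* (0.32) were called higher. Over all 36 genes of this list the calls were even, 12 higher and 11 lower, their summed level was 1304 to 1402 TPM with shRNA CON and 1169 to 1246 TPM with shRNA RUS, and the order of the calls turned without replicate 4 of shRNA CON (12 and 13) or replicate 2 of shRNA RUS (10 and 11).

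In the Notch list, 12 of 26 genes were called higher and 10 lower. Among them, the targets *Hes5* (−0.83) and *Hes1* (−0.78) and the glycosyltransferase *Lfng* (−0.68) were called lower, and the receptors *Notch1* (0.45) and *Notch2* (1.03) and the coactivator *Maml1* (1.45) higher. In the Wnt list, *Wnt7b*, a secreted ligand, had 17.8, 17.7, 19.01 and 14.8 TPM with shRNA CON and 35.2, 39.1, 46.7 and 42.5 TPM with shRNA RUS, a log2 difference of 1.23 ± 0.0966 (SE, adjusted p = 6.36e-06, limma), and *Dkk2*, a secreted modulator, had 2.78, 3.14, 3.24 and 3.68 TPM with shRNA CON and 0.36, 0.36, 0.34 and 0.25 TPM with shRNA RUS, a log2 difference of −2.96 ± 0.15 (SE, adjusted p = 6.08e-07, limma). *Axin2*, the usual target gene, was called higher at 0.40. Of 37 Wnt genes 13 were called higher and 7 lower. In the insulin list, *Igfbp2*, a secreted binding protein of the growth factors, had 641, 612, 634 and 574 TPM with shRNA CON and 207, 244, 252 and 204 TPM with shRNA RUS, a log2 difference of −1.45 ± 0.0744 (SE, adjusted p = 5.66e-07, limma), and the ligand *Igf1* fell by 0.68, while the kinases *Akt1* (0.51) and *Akt2* (0.93) and the receptor *Igf1r* (0.65) were called higher. The coactivators *Yap1* (1.05) and *Wwtr1* (0.88) of the Hippo pathway and their target *Axl* (1.31) were called higher, while the target *Ccn1* was called lower (−0.54) and *Ccn2* was not called (−0.16). Of 19 genes of that list, 10 were called higher and 7 lower. In the insulin list these counts were 11 and 6 of 23. Single values in parentheses are log2 fold changes.

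Genes of the lysosome were mostly higher with shRNA RUS. Of 47 genes, 27 were called higher and 12 lower, around a median of 0.36 on the log2 scale. The list summed to 9178, 9028, 9091 and 8844 TPM with shRNA CON and 11880, 12020, 12330 and 12500 TPM with shRNA RUS, so every knockdown library lay above every control. *Ctsb*, a cysteine protease and the gene of highest level, had 1106, 1037, 1073 and 1062 TPM with shRNA CON and 1837, 1864, 1927 and 2038 TPM with shRNA RUS, a log2 difference of 0.84 ± 0.0391 (SE, adjusted p = 3.48e-07, limma). *Asah1*, the acid ceramidase, had 81.7, 87.9, 83.6 and 102 TPM with shRNA CON and 212, 206, 184 and 189.9 TPM with shRNA RUS, a log2 difference of 1.16 ± 0.0774 (SE, adjusted p = 2.50e-06, limma). *Lamp1*, a protein of the lysosomal membrane, rose by 0.78, *Mcoln1*, its calcium channel, by 0.97, and the transcription factors *Tfeb* and *Tfe3*, which drive lysosomal genes, by 0.94 and 0.62 on the log2 scale. The members called lower included the protease *Ctsh* (−0.87). These factors bind the word TCACGTGA, which stood in 6 of the 44 promoters of list genes (13.6 %, 37 of 47 genes matched) and in 0.974 % of all promoters. The promoters that hold it belong to 6 genes, of which 4 were called higher, 1 lower (*Atp6v1a*, a subunit of the proton pump, at −0.23) and *Ctsd* neither (−0.08). The windows show this word in capitals for all of them, once for each gene, on the strand of the gene. 
Mcoln1 (chr8:3500462-3500491): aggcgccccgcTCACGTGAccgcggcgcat
Ctsa (chr2:164833749-164833778): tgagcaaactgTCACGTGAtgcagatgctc
Cln3 (chr7:126583340-126583369): cacgggtactgTCACGTGAcccccaacctg
Atp6v0d1 (chr8:105566050-105566079): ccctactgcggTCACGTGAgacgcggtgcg
Ctsd (chr7:142387908-142387937): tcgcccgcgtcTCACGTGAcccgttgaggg
Atp6v1a (chr16:44139373-44139402): ttttttttaaaTCACGTGAtaggcttaacg

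Autophagy genes followed with 16 of 30 called higher and 7 lower. *Ulk1*, the kinase that starts autophagy, rose by 0.92, *Map1lc3b*, which coats the autophagosome, by 0.89 and the cargo receptor *Sqstm1* by 0.53 on the log2 scale, while *Gabarapl2*, a relative of *Map1lc3b*, fell by 0.62. The proteasome, the other route of protein breakdown, was mostly lower: 29 of 36 subunits and activators were called lower, and the 2 called higher were *Psmd11* (0.19) and *Psmd7* (0.15), both of the regulatory lid. The changes were small, with a median of −0.30, and the list summed to 5947, 5860, 5772 and 5682 TPM with shRNA CON and 4805, 4713, 4718 and 4571 TPM with shRNA RUS. *Psmb6*, a catalytic subunit of the highest level, had 427, 389, 397 and 372 TPM with shRNA CON and 282, 283, 285 and 266 TPM with shRNA RUS, a log2 difference of −0.51 ± 0.0480 (SE, adjusted p = 2.05e-05, limma).

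Genes of chaperones and chaperonins, of the cytosol and a few of the mitochondrion, were mostly called lower. Of 24 genes, 17 were called lower, among them the chaperonin subunits *Cct2*, *Cct4* and *Cct7* (−0.49, −0.55 and −0.56 on the log2 scale), which fold tubulin and actin. *Hsp90aa1*, the inducible HSP90 gene, had 1526, 1555, 1534 and 1646 TPM with shRNA CON and 894, 833, 883 and 687 TPM with shRNA RUS, a log2 difference of −0.93 ± 0.0813 (SE, adjusted p = 1.21e-05, limma). The 5 called higher were *Bag3*, a co-chaperone, *Hspa1a* and *Hspa1b*, the heat-inducible members of their family, *Hspb1* and *Dnajb1*. *Bag3* had 24.5, 24.99, 26.7 and 21.6 TPM with shRNA CON and 56.5, 68.6, 71.3 and 81.4 TPM with shRNA RUS, a log2 difference of 1.49 ± 0.10 (SE, adjusted p = 2.83e-06, limma). *Hspa1a* and *Hspa1b*, near-identical genes between which reads may have been divided, rose by 1.19 and 1.27. The heat shock element, searched as GAA, TTC and GAA with any 2 bases between the words, was found at 3 genes of the list, 4 of 25 promoters (16.0 %, 18 of 24 genes matched, against 0.603 % of all). Whether the 5 genes called higher were among those matched was not examined. All 3 genes with the element were called lower. They are shown because *Hspd1* and *Hspe1*, partners in the mitochondrial chaperonin, share 1 promoter region and hence the same element, and both were called lower (−0.35 and −0.30 on the log2 scale). 
Hspd1 (chr1:55088050-55088079): gccttccgGAAGGTTCTAGAAcggaccgtg
Hspe1 (chr1:55088051-55088080): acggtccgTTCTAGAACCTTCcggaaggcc
Hsph1 (chr5:149636279-149636308): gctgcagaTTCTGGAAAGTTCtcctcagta

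In the endoplasmic reticulum, 8 of 22 genes were called higher and 10 lower (8 and 7 after adjustment for transcript length), with the chaperone *Hspa5* at −0.48 and the factors *Xbp1* and *Atf6* at 0.41 and 0.37 on the log2 scale. The integrated stress response was even as well, 5 higher and 5 lower of 18. *Ppp1r15a*, which ends this response, rose by 1.15 and *Sesn2*, which restrains mTORC1, by 0.85, while *Trib3* fell by 1.43, *Asns* had a log2 fold change of −0.96 and *Chac1* one of −0.78, both called lower. *Atf4* itself changed by 0.18.

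**Figure D3:**
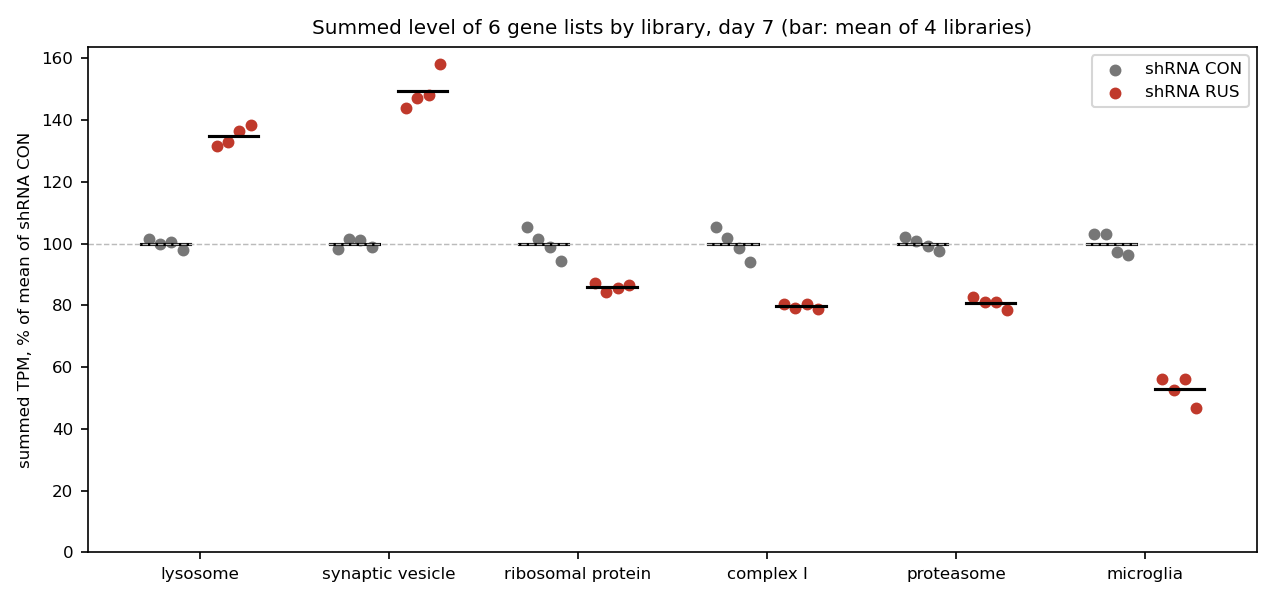
Summed TPM of the genes of 6 lists in each day 7 library, as a percentage of the mean of the 4 shRNA CON libraries (vertical axis, from 0), with shRNA CON in grey and shRNA RUS in red and a bar at the mean of each group. In the sums of lysosomal and synaptic vesicle genes all 4 knockdown libraries lie above the controls, and in those of ribosomal proteins, complex I, the proteasome and microglia all 4 lie below.

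The machinery of protein synthesis was lower by small amounts. No gene of the 53 cytosolic ribosomal proteins was called higher and 40 were called lower by limma (0 and 41 at an unadjusted p under 0.05, and 4 and 28 calls with quantile normalization), at a median log2 fold change of −0.22. *Rpl18* had 684, 619, 653 and 611 TPM with shRNA CON and 339.6, 307, 354 and 342 TPM with shRNA RUS, a log2 difference of −0.94 ± 0.0534 (SE, adjusted p = 9.82e-07, limma), and *Rplp1*, the member of highest level, had a log2 fold change of −0.13, a call lost without replicate 1, 2 or 3 of shRNA CON or replicate 1, 2 or 3 of shRNA RUS (limma adjusted p up to 0.128). Many ribosomal protein genes have processed copies that share their reads, so the level of each is uncertain. The list summed to 42580, 40990, 39940 and 38120 TPM with shRNA CON and 35220, 34100, 34560 and 35010 TPM with shRNA RUS. Of 42 genes that build ribosomes, 26 were called lower and 0 higher by limma (1 higher at an unadjusted p under 0.05), with *Nop58*, a core protein of the snoRNPs, at −0.86 and *Npm1*, a nucleolar chaperone, at −0.43. *Myc*, which drives this set, was not called (−0.05).

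Nuclear genes of respiratory complex I were mostly lower too: 26 of 36 were called lower and 0 higher by limma (0 higher at an unadjusted p under 0.05), between −0.94 and −0.01 on the log2 scale. *Ndufa8* had 142, 139, 129 and 133 TPM with shRNA CON and 74.97, 65.9, 72.95 and 69.7 TPM with shRNA RUS, a log2 difference of −0.94 ± 0.0509 (SE, adjusted p = 7.48e-07, limma). The 13 protein genes of the mitochondrial genome did not follow, with 4 called higher and 0 lower by limma (4 and 1 at an unadjusted p under 0.05). The number called higher fell to 1 without replicate 2 of shRNA CON or replicate 1 of shRNA RUS and without the filter on low values, and to 2 without replicate 1 or 3 of shRNA CON, and with quantile normalization 2 were called in each direction. *mt-Nd4*, a complex I subunit made in the mitochondrion, at 0.30, lost its call without replicate 1, 2 or 3 of shRNA CON or replicate 1 of shRNA RUS (limma adjusted p up to 0.0604). Replicate 4 of shRNA CON had a share of mitochondrial TPM inside the range of the knockdown libraries, as given above. In the tricarboxylic acid cycle 10 of 22 genes were called lower and 6 higher, with *Idh2*, the mitochondrial isocitrate dehydrogenase that makes NADPH, at −0.94 and *Pdha1*, of the pyruvate dehydrogenase, at 0.61.

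The ribosomal and complex I lists hold short transcripts, with median lengths of 1128 and 1026 bases, and length moved with the result. Over the 23883 genes with a matched transcript length, the median log2 fold change was −0.08 in the quintile of genes with the shortest transcripts and −0.14, −0.07, 0.01 and 0.11 in the following quintiles, up to the longest. Adjusted for length, 24 ribosomal protein genes were called lower and 4 higher, and for complex I 19 lower and 0 higher. With GC content adjusted as well, the ribosomal counts were 24 and 8. The microglia and ependymal lists had 15 and 20 calls lower and none higher after adjustment for length, and the lysosome 28 higher and 11 lower.

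**Figure D4:**
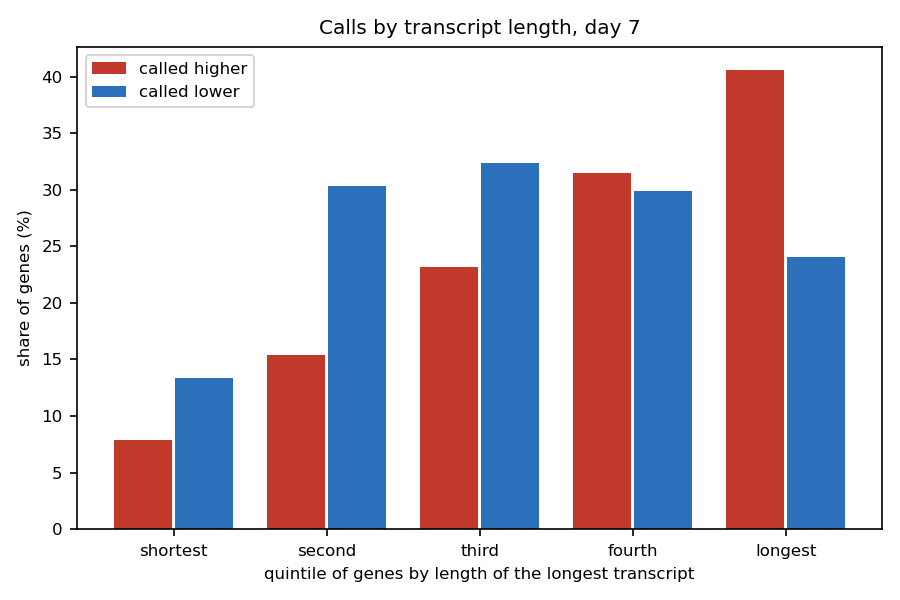
Share of genes called higher (red) and lower (blue) with shRNA RUS on day 7 in quintiles of the genes by length of the longest annotated transcript, as a percentage of the genes of each quintile (vertical axis). The share called higher grows from 7.89 % in the shortest to 40.6 % in the longest quintile, while the share called lower is 13.4 % in the shortest, 32.4 % in the middle and 24.1 % in the longest quintile.

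Genes of sugar metabolism were called in both directions. Of 21 genes of glycolysis 8 were called higher and 11 lower. Those called higher included enzymes of the first steps, at 0.95 for hexokinase *Hk1*, 0.25 for *Gpi1* and 0.33 for phosphofructokinase *Pfkl*. They also included *Aldoc*, an aldolase, at 0.61. Those called lower included *Slc16a3*, a lactate transporter, at −1.58 and enzymes of later steps, at −0.41 for *Tpi1*, −0.53 for *Gapdh*, −0.42 for *Pgk1*, −0.82 for *Eno1*, −0.57 for *Pkm* and −0.54 for *Ldha*. *Eno2*, the neuronal enolase, was called higher at 0.82, against the direction of *Eno1*. *Hk1* had 56.2, 56.8, 59.3 and 53.7 TPM with shRNA CON and 97.9, 112, 114 and 114 TPM with shRNA RUS, a log2 difference of 0.95 ± 0.0528 (SE, adjusted p = 8.53e-07, limma), and *Eno1* had 897, 845, 862 and 812 TPM with shRNA CON and 482, 489, 504 and 466 TPM with shRNA RUS, a log2 difference of −0.82 ± 0.0405 (SE, adjusted p = 4.67e-07, limma). Neither gene overlapped between the groups, where 22.3 % of all genes tested lay wholly above the controls and 24.2 % wholly below.

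Genes of sterol synthesis were mostly called lower and those of fatty acid synthesis mostly higher. Of 24 genes of cholesterol synthesis 13 were called lower and 4 higher. *Hmgcs1*, an enzyme of the first steps and the member of highest level, had 167, 176, 173 and 181 TPM with shRNA CON and 124, 109, 104 and 100.5 TPM with shRNA RUS, a log2 difference of −0.68 ± 0.0643 (SE, adjusted p = 2.09e-05, limma), and *Dhcr7*, the last enzyme of one branch, fell by 0.82. *Srebf2*, the factor that drives the pathway, was called higher at 0.49. Among the 17 of 25 list genes matched to a promoter, 1 holds the sterol element TCACNCCAC, which 1.24 % of all promoters hold, and it is *Hmgcs1*. 
Hmgcs1 (chr13:119690204-119690233): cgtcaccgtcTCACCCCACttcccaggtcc
Of 22 genes of fatty acid and glyceride synthesis 14 were called higher and 5 lower. *Gpam*, which starts glycerolipid synthesis, had 99.96, 97.2, 99.3 and 102 TPM with shRNA CON and 210.5, 196, 206 and 197 TPM with shRNA RUS, a log2 difference of 1.02 ± 0.0373 (SE, adjusted p = 1.22e-07, limma). Of 22 genes of cholesterol efflux and lipoproteins, 11 were called higher and 8 lower. The lipoprotein genes *Apoe* and *Clu* were called higher at 0.46 and 0.45, the receptor *Lrp1* at 0.95, and *Ch25h*, an enzyme that makes a signalling oxysterol, fell by 2.61 from 6.07, 4.94, 4.85 and 4.83 TPM with shRNA CON.

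Genes of serine and one-carbon metabolism were mostly lower, 13 of 21 against 4 higher. *Phgdh* (−0.30) and *Psat1* (−0.40), which make serine, and *Mthfd2* (−0.68), which moves its carbon into folates, were called lower, and *Gldc* (0.59) and *Amt* (0.24), which cleave glycine, higher (log2 fold changes). *Tyms*, the thymidylate synthase with the largest fall (−1.03), is also a gene of the S phase. In the antioxidant list, 16 of 32 were called lower, among them the peroxiredoxins *Prdx1* (−0.42) and *Prdx2* (−1.02) and the superoxide dismutases *Sod1* (−0.28) and *Sod2* (−0.43). These 16 lower and 8 higher became 12 and 10 with adjustment for transcript length, and 13 and 11 with GC content as well. *Hmox1*, the haem oxygenase, was the largest of the 8 increases, with 146, 139.9, 149 and 146 TPM with shRNA CON and 320.4, 313, 319.9 and 349 TPM with shRNA RUS, a log2 difference of 1.16 ± 0.0391 (SE, adjusted p = 9.68e-08, limma). The metallothioneins *Mt1* (0.11) and *Mt2* (−0.04), which had the highest levels, were not called.

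Adhesion genes were called higher more often than lower. Of 24 integrins and cadherins 16 were called higher and 3 lower. *Cdh2*, the cadherin of the neuroepithelium, had 245, 258, 255 and 259.5 TPM with shRNA CON and 343, 352, 328 and 336 TPM with shRNA RUS, a log2 difference of 0.41 ± 0.0336 (SE, adjusted p = 7.72e-06, limma), and *Itgb8*, the integrin subunit through which radial glia activate TGF-beta, fell by 0.83. Of 28 collagens 13 were called higher and 7 lower: the basement membrane chains *Col4a1* (0.47) and *Col4a2* (0.50) were higher and *Col18a1* (−1.06), of the same membrane, was lower. Of 29 laminins, proteoglycans and other matrix proteins, 6 were called higher and 8 lower. Of 28 matrix proteases and inhibitors, 13 were called higher and 8 lower. Of the proteases, *Mmp14*, a membrane-bound metalloproteinase, had 56.1, 55.9, 59.3 and 50.4 TPM with shRNA CON and 133, 149.5, 145 and 146 TPM with shRNA RUS, a log2 difference of 1.37 ± 0.0534 (SE, adjusted p = 1.66e-07, limma). *Plau*, the urokinase, had 22.7, 20.8, 21.3 and 20.98 TPM with shRNA CON and 4.16, 3.66, 4.22 and 3.35 TPM with shRNA RUS, a log2 difference of −2.46 ± 0.0842 (SE, adjusted p = 1.03e-07, limma). *Adamts4*, which cuts proteoglycans, rose by 2.08, and *Tnr*, a matrix protein of oligodendrocytes and interneurons, fell by 1.11 on the log2 scale.

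Among genes that act on chromatin, members of 1 complex moved in opposite directions. Of 32 genes of DNA methylation and Polycomb, 17 were called higher and 10 lower. The methyltransferases of Polycomb complex PRC2 moved apart, *Ezh2*, that of dividing cells, with 79.2, 87.3, 82.9 and 96.02 TPM with shRNA CON and 61.3, 55.6, 56.2 and 53.3 TPM with shRNA RUS, a log2 difference of −0.61 ± 0.0668 (SE, adjusted p = 5.30e-05, limma), and *Ezh1*, that of resting cells, with 11.02, 11.4, 10.4 and 12.2 TPM with shRNA CON and 29.6, 28.6, 27.4 and 34.03 TPM with shRNA RUS, a log2 difference of 1.40 ± 0.0761 (SE, adjusted p = 7.63e-07, limma). Among the readers of their mark, *Cbx7* had 7.98, 8.67, 8.32 and 7.60 TPM with shRNA CON and 23.8, 22.8, 24.1 and 29.3 TPM with shRNA RUS, a log2 difference of 1.60 ± 0.0786 (SE, adjusted p = 4.50e-07, limma), and *Cbx6* rose by 1.09, while *Cbx8* fell by 0.27. *Phf19*, an accessory subunit of PRC2, had the largest fall of the list at −1.39, and *Jarid2*, another one, rose by 0.45. *Uhrf1* and *Dnmt1*, which copy DNA methylation after replication, were called lower (−0.91 and −0.32), and *Tet2* and *Tet3*, which oxidize it, higher (0.31 and 0.30). Remodelers were called higher in 15 of 28 cases and lower in 4, with the subunit *Actl6a* of progenitors at −0.40 and its neuronal counterpart *Actl6b* at 0.37. *Rest*, the repressor of neuronal genes, was called higher at 0.75, as was its corepressor *Rcor1* (0.33), while *Rcor2* was called lower (−0.43). Of 21 genes of *Rest* and its corepressors, 13 were called higher and 3 lower.

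Splicing regulators were called in both directions. *Ptbp1*, which represses neuronal exons in progenitors, had 246, 231, 249.6 and 212 TPM with shRNA CON and 161, 161, 163 and 156 TPM with shRNA RUS, a log2 difference of −0.55 ± 0.0507 (SE, adjusted p = 1.75e-05, limma), and its neuronal relative *Ptbp2* was not called (−0.07). *Celf5* (1.01), *Elavl3* (0.54) and *Srrm3* (0.67), regulators of neurons, were called higher, and *Nova1* (−0.72), also neuronal, lower. In all, 12 of 27 were called higher and 6 lower. Nucleoporins were mostly lower, with 16 of 27 nucleoporins called lower and 4 higher (16 and 1 after adjustment for transcript length). Of 17 genes of the nuclear lamina, 4 were called higher and 8 lower. Of the lamins, *Lmnb1* (−0.64) and *Lmnb2* (−0.63) were called lower with their receptor *Lbr* (−0.76), and *Lmna* (0.72), the lamin of differentiated cells, and *Sun2* (1.35), which links the lamina to the cytoskeleton, higher.

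Among all genes whose mean was 10 TPM or more, the 10 largest increases and decreases without overlap come from no single list. *Rnase1*, a secreted ribonuclease, had 0.97, 1.23, 1.02 and 1.07 TPM with shRNA CON and 36.1, 29.4, 35.2 and 37.4 TPM with shRNA RUS, a log2 difference of 4.88 ± 0.0966 (SE, adjusted p = 2.09e-08, limma). *Epas1*, the hypoxia-inducible factor of endothelium and glia, had 11.2, 11.4, 12.1 and 10.8 TPM with shRNA CON and 50.4, 51.9, 52.1 and 60.5 TPM with shRNA RUS, a log2 difference of 2.23 ± 0.0604 (SE, adjusted p = 4.59e-08, limma). *Slc14a1*, a urea transporter of astrocytes, rose by 2.44, *Megf10*, the engulfment receptor of astrocytes, by 2.09 and *Lrrc8a*, the obligatory subunit of the volume-regulated anion channel, by 2.04. The other increases were those of *Steap4*, a metalloreductase, *Lrrc75b*, *Acat3*, *Pdzph1* and *Glycam1*, at 2.60, 2.42, 2.30, 2.27 and 2.10 on the log2 scale. Apart from *Npvf*, *Plau* and *Bcas1*, given above, the decreases were led by *Ccn5*, a matricellular protein of the family of *Ccn1* and *Ccn2*, with 54.8, 55.05, 55.7 and 48.8 TPM with shRNA CON and 4.51, 4.91, 4.33 and 3.88 TPM with shRNA RUS, a log2 difference of −3.58 ± 0.0782 (SE, adjusted p = 2.65e-08, limma). *C1ql3*, a secreted synaptic organizer, had 62.1, 69.00, 69.8 and 64.5 TPM with shRNA CON and 14.9, 16.1, 18.1 and 14.2 TPM with shRNA RUS, a log2 difference of −2.07 ± 0.0751 (SE, adjusted p = 1.22e-07, limma). *Ckmt1*, the mitochondrial creatine kinase, fell by 2.31, *Gstm6*, a glutathione transferase, by 2.07, *Pgm5*, a protein of cell contacts, by 2.03, *Cnmd*, an inhibitor of vessel growth, by 2.13 and *Sertm1* by 2.18.

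The same contrast on day 5, before differentiation, was set against that on day 7 by testing the difference between the effects of the shRNA on both days, in 1 fit over the 16 libraries. Of 23787 genes, 3623 had a higher effect on day 7 (15.2 %) and 3463 a lower one (14.6 %). On day 5 itself, 14.8 % of the 22581 genes tested were called higher and 17.9 % lower. In the ribosomal protein list all 53 members had a lower effect on day 7, where the list's median was 0.30 on day 5 against −0.22 on day 7. With TPM as deposited, 46 of them had a lower effect, and with quantile normalization 21. For complex I this held for 33 of 36 genes (0.28 on day 5), for the proteasome for 28 of 36 (0.12) and for the antioxidant list for 19 of 32 (0.22). The microglia list was near its control level on day 5 (median −0.08), and 15 of 16 genes had a lower effect on day 7. For *C1qa*, the log2 fold change was −0.02 on day 5, and the difference between the days was −1.04 (limma adjusted p = 3.97e-05).

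Several lists that were higher on day 7 had medians below 0 on day 5, as had genes of long transcripts in general: in the quintiles of transcript length, from the shortest to the longest, the median over all genes was −0.0042, 0.00019, −0.038, −0.073 and −0.13 on day 5. For synaptic vesicle genes, with a median length of 4788 bases, the median was −0.08 on day 5, and 16 of 28 genes had a higher effect on day 7. The same was true of 16 of 27 FGF genes, 16 of 28 remodelers and 15 of 36 potassium channels. Other lists had medians above 0 on day 5 already. That of the lysosome was 0.34 on day 5, with 30 of 47 genes called higher, and the differences went both ways (11 higher and 13 lower on day 7, but 20 and 9 with TPM as deposited). The immediate early list had a median of 0.28 on day 5, with 8 genes called higher and 2 lower of 23, and 9 had a higher and 1 a lower effect on day 7. The autophagy list had a median of 0.10 on day 5, with 13 called higher and 6 lower of 30. The medians on day 5 were 0.12 for integrins and cadherins, 0.11 for *Rest* and its corepressors and 0.13 for cholesterol efflux and lipoproteins. Oligodendrocyte genes had a median of −0.67 on day 5, and 2 of 18 had a lower and 2 a higher effect on day 7 (5 and 2 with quantile normalization). *Gmnc* was lower on day 5 (−1.83) by at least as much as on day 7, and the difference was not called (0.37, limma adjusted p = 0.204), whereas *Foxj1* had a log2 fold change of −0.08 on day 5 and a lower effect on day 7 (−0.55, limma adjusted p = 0.0233). This call was lost with TPM as deposited (limma adjusted p = 0.0844), with quantile normalization (0.0735), with the replicate number as a block (0.0527) and without replicate 1 of shRNA CON of day 5 (0.0502). The levels of both days were scaled together, and with TPM as deposited 5700 genes had a higher and 2052 a lower effect on day 7, so the balance of directions depends on the scaling.

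**Figure D5:**
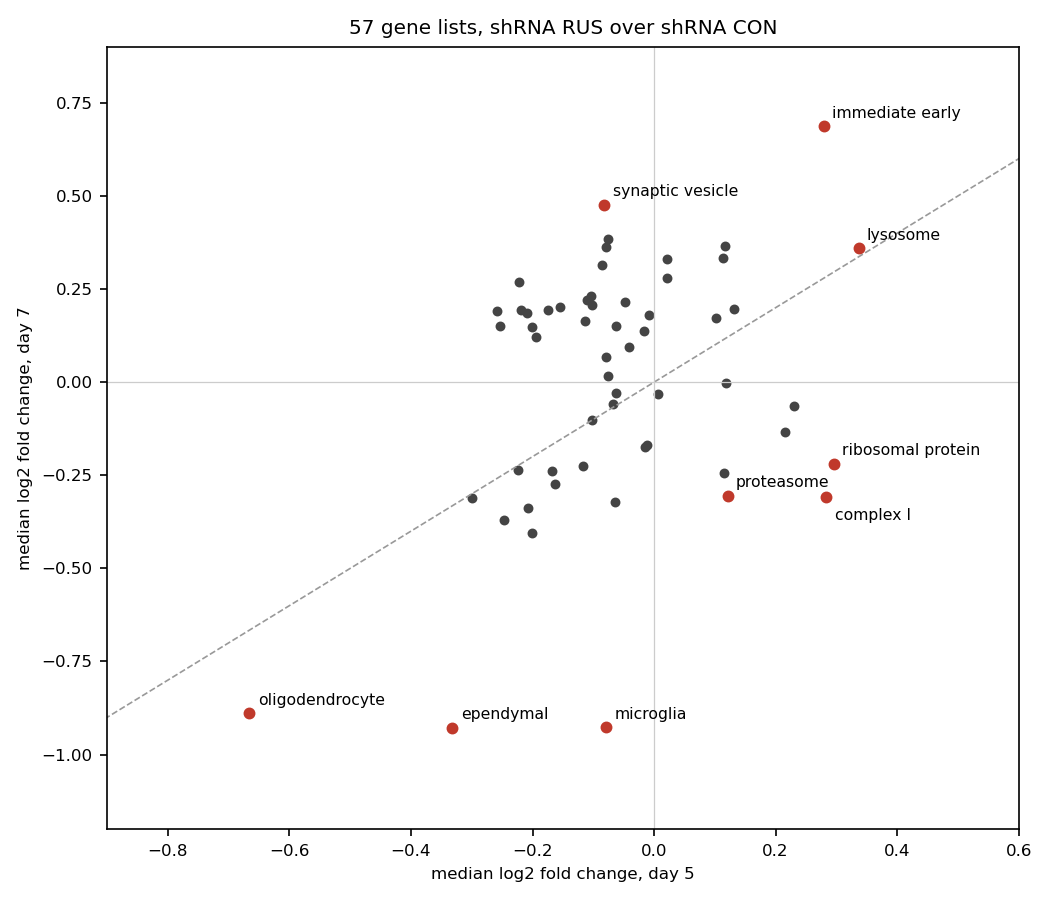
Median log2 fold change of each of the 57 lists on day 5 (horizontal axis) and on day 7 (vertical axis), shRNA RUS over shRNA CON, with the line of equal values dashed. The ribosomal, complex I and proteasome lists lie to the right of 0 and below it, the synaptic vesicle list lies above, the lysosome list is high on both days, and the microglia list is near 0 on day 5 and low on day 7.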

How the data were processed

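PolyA RNA of mouse cortical NSC was sequenced on an Illumina NextSeq. Reads were mapped by the authors with STAR, to mm10 with the transcript table of GRCm38.99, and the authors deposited TPM per gene from RSEM for 8 libraries on each day, without pooling replicates. The deposited TPM of every library have the same sum, so they keep no read counts, the depth is unknown, and no interval for counting error can be given. Each deposited table also holds 6 columns of the authors' own DESeq2 comparison (mean, log2 fold change, its error, statistic, p-value and adjusted p-value), which were not used.

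TPM were scaled by library: each factor was the median, over genes with 1 TPM or more in all libraries, of the ratio to the gene's geometric mean. Genes that averaged 0.1 TPM or more were fitted as log2(TPM + 0.1) by limma 3.58.1 in R 4.3.3, with trend and Benjamini-Hochberg adjustment over all genes. Fold changes on this scale understate those of low genes. Day 7 was fitted with its 8 libraries, and the difference between the days with all 16. *Gm20754*, the gene of *RUS*, was tested by an exact permutation test. The script was tested on simulated data. The fits were repeated with other pseudocounts (1 and 0.01), with a stricter filter (1 TPM) and with none, without scaling, with quantile and 75th percentile scaling, without trend, with a replicate block, without each library in turn and, added after the data were seen, with transcript length and GC content removed by a lowess curve of span 0.3. Length is that of the longest GENCODE transcript of a gene, matched by symbol. Promoters (250 bases before to 50 after the start) came from RefSeq on GRCm38.p6.

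The 57 gene lists and the genes in them were chosen with earlier results of these data known, so their counts are descriptions. Named genes were the largest increase, the largest decrease and the highest level of each list (changes only where the groups did not overlap and the mean reached 1 TPM), all members called in a direction where these were 5 or fewer, and over all genes the 10 largest changes in each direction among those that averaged 10 TPM or more. A further 118 genes were named after their values were seen. Some genes of the lists, among them genes that this rule names, are not reported here by name, and the counts include them. Symbols that stand on more than 1 line (113 on day 7) or were turned into dates (14 on day 7) could not be matched between the days, and 108 lines were left out of that comparison.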

Additional observations from a re-analysis of the deposited data

Results flagged for a closer look

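In the groups of 4 libraries, the TPM of 30 values, each of 1 gene in 1 library, stood apart from the other 3 libraries of its group by Dixon's criterion. This is 5.46 % of the 550 groups examined over the 275 genes named, and chance flags about 1 group in 20. In replicate 1 of shRNA CON, the values that stood apart were *Ch25h* at 6.07 TPM (4.83 to 4.94 in the other libraries), *Gabarapl2* at 214 TPM (197 to 199.6 in the other libraries) and *Sertm1* at 22.1 TPM (24.5 to 24.9 in the other libraries). In replicate 2 of shRNA CON, the values that stood apart were *Bst2* at 101 TPM (86.7 to 87.5 in the other libraries) and *Gabrb1* at 32.4 TPM (34.1 to 34.4 in the other libraries). In replicate 3 of shRNA CON, the values that stood apart were *B2m* at 431 TPM (484 to 493 in the other libraries) and *Ptbp2* at 87.98 TPM (92.5 to 92.97 in the other libraries). In replicate 4 of shRNA CON, the values that stood apart were *Actl6a* at 54.5 TPM (60.5 to 61.2 in the other libraries), *Ccn5* at 48.8 TPM (54.8 to 55.7 in the other libraries), *Lrrc8a* at 13.5 TPM (15.5 to 15.7 in the other libraries), *Mt1* at 5436 TPM (6273 to 6347 in the other libraries), *Pdzph1* at 4.89 TPM (2.83 to 3.14 in the other libraries), *Rcor1* at 12.5 TPM (14.3 to 14.5 in the other libraries), *Smo* at 57.1 TPM (64.9 to 66.4 in the other libraries) and *Ulk1* at 29.99 TPM (32.3 to 32.6 in the other libraries). In replicate 1 of shRNA RUS, the values that stood apart were *Gli2* at 9.45 TPM (11.3 to 11.6 in the other libraries), *Grin3a* at 4.17 TPM (3.53 to 3.60 in the other libraries) and *Hk1* at 97.9 TPM (112 to 114 in the other libraries). In replicate 2 of shRNA RUS, the value that stood apart was *Trib3* at 1.03 TPM (0.71 to 0.75 in the other libraries). In replicate 3 of shRNA RUS, the value that stood apart was *Lfng* at 75.7 TPM (69.7 to 70.7 in the other libraries). In replicate 4 of shRNA RUS, the values that stood apart were *Dnajb1* at 33.04 TPM (30.8 to 31.04 in the other libraries), *Epas1* at 60.5 TPM (50.4 to 52.1 in the other libraries), *Fabp7* at 1089 TPM (1252 to 1280 in the other libraries), *Grin1* at 7.64 TPM (6.26 to 6.41 in the other libraries), *Hspa5* at 278 TPM (315 to 320.1 in the other libraries), *Jarid2* at 21.5 TPM (22.7 to 22.9 in the other libraries), *Lif* at 7.60 TPM (4.79 to 5.25 in the other libraries), *Pgk1* at 344 TPM (372 to 378 in the other libraries), *Psmb6* at 266 TPM (282 to 285 in the other libraries) and *Sertm1* at 4.03 TPM (5.57 to 5.84 in the other libraries). Replicate 4 of shRNA CON held 8 of them and replicate 4 of shRNA RUS 10, more than any other library of the same group.

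The effect of the shRNA differed between day 7 and day 5 for 176 of the genes named, by a test of the difference itself. Among the genes whose difference is given, the difference of the log2 fold changes, day 7 minus day 5, was −1.04 for *C1qa* (limma adjusted p = 3.97e-05) and −0.55 for *Foxj1* (limma adjusted p = 0.0233). The call for *Foxj1* was lost with TPM as deposited, with quantile normalization, with the replicate block and without replicate 1 of shRNA CON of day 5.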

How the results depend on the processing

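Over the alternatives to pseudocount, filter, scaling, trend and length, and with any 1 library left out, the counts of genes called on day 7 stayed within 1.5 times of the main counts, at 5275 to 5608 higher and 5810 to 6098 lower without 1 library. Lists with more members called higher than lower numbered 29 to 33 and those with more called lower 22 to 25. The share of *Gm20754* left with shRNA RUS was 25.2 to 57.7 % without 1 library. The difference between the days was the result that moved, to 5700 genes with a higher and 2052 with a lower effect on day 7 with TPM as deposited, against 3623 and 3463; without 1 library it gave 3075 to 4384 and 3062 to 3899. Of the 264 named genes with a call, 14 lost it in at least 1 alternative, 8 of them when 1 library was left out. Adjustment for transcript length turned *Calb2* to 0.0080, and adjustment for length and GC content turned *Fabp7* to 0.19 and *Lmo4* to 0.0047 on the log2 scale. The difference between the days lost its call for *Foxj1*, with limma adjusted p of 0.0502 to 0.0844, with TPM as deposited, with quantile normalization, with the replicate block and without replicate 1 of shRNA CON of day 5. The balance of calls turned in 5 lists. With length adjusted, their medians were 0.085 for axon guidance, −0.044 for BMP and TGF-beta and 0.041 for the endoplasmic reticulum, and with GC content as well 0.0031 for BMP and TGF-beta and 0.0035 for Hedgehog. Without 1 library, the median was −0.071 to −0.037 for BMP and TGF-beta, where the balance turned without replicate 4 of shRNA CON or replicate 2 of shRNA RUS, and −0.054 to 0.0046 for radial glia, where it turned without replicate 3 of shRNA CON. The cause was not tested. TPM hold no read counts, so the depth behind a value is unknown and differences of low genes are less certain.

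The replicate numbers are shared between the groups, but the correlations of same-numbered libraries' deviations were 0.030, 0.101, 0.057 and 0.016, not every library correlated best with its own number, and the numbers were not taken as pairs. With the number as a replicate block, 5330 genes were called higher and 5895 lower on day 7, and 2554 and 2647 had a higher and a lower effect on day 7 than on day 5. 5 named genes lost their call under the block.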
